A study of Mus musculus with 24 samples.

Results

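Expression of 10 genes for the synthesis of prostaglandins and leukotrienes (Ptgs1, Ptgs2, Ptges, Ptgis, Hpgds, Alox5, Alox5ap, Alox15, Ltc4s and Lta4h) was followed across 4 populations of mouse tissue-resident macrophages. The 10 genes were chosen by name as enzymes of these pathways, and all 10 were among the 45706 genes of the count table. RNA was sequenced from microglia (MG) of the brain, Kupffer cells (KCs) of the liver, peritoneal macrophages (PMs) and alveolar macrophages (AMs) of the lung, each sorted by FACS straight from the tissue (ex vivo), and from the corresponding cultured MG-, KC-, PM- and AM-like cells (LCs) after 14 days in vitro. Each of the 8 groups had 3 libraries, 24 in all, and every animal was a female C57BL/6J mouse of 8 to 12 weeks without a transgene or other treatment. All cultures grew in flasks coated with polyethylenimine, fed with M-CSF alone (KC-LCs and PM-LCs), with IL-34 added (MG-LCs) or with GM-CSF (AM-LCs), at 3% oxygen except for the AM-LCs, which grew at atmospheric oxygen and without glucose. The sort stained CD45 and CD11b in all 4 populations, with F4/80 and TIM-4 for KCs, F4/80 and CD115 for PMs and SiglecF for AMs, and no such sort is described for the cultures before RNA extraction. A flask held the pooled cells of 3 brains, lungs or peritoneal lavages, or those of 1 liver. State, growth factor, oxygen and glucose therefore changed together between the sorted and cultured cells of a population and cannot be told apart, and no label ties a cultured library to a sorted one.

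Eicosanoids are short-lived lipid signals made from arachidonic acid, which phospholipases release from membranes. The cyclooxygenases COX-1 (Ptgs1) and COX-2 (Ptgs2) turn it into prostaglandin H2, from which terminal synthases make prostaglandin E2 (Ptges), prostacyclin (Ptgis) or prostaglandin D2 (Hpgds, the haematopoietic synthase). In the other branch, 5-lipoxygenase (Alox5) works with its activating protein (Alox5ap) to make leukotriene A4, which becomes the chemoattractant leukotriene B4 through Lta4h or the cysteinyl leukotriene C4 through Ltc4s, while the lipoxygenase encoded by Alox15 oxygenates arachidonic and linoleic acid near the far end of the chain. Macrophages are a major source of both families, COX-2 is known as the inducible cyclooxygenase of activated cells, and Alox15 is known as a gene of resident PMs. The measurements here are of mRNA, not of the enzymes or their lipids.

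The libraries held between 29569486 and 47105111 reads counted on genes. Levels are in CPM, the reads of a gene scaled to a common library total, after TMM scaling over the 24 libraries, RPKM is the same value per kilobase of merged exons and is used only to compare genes with each other, and 3 reads in a library, the limit a count of 0 allows, stood for 0.0661 to 0.115 CPM. These limits cover counting error only. The sorted libraries carried the markers of their own tissue, and these were lower in the cultures: 6 MG genes summed to between 23553 and 24454 CPM in MG and to 368 to 2438 CPM in MG-LCs, 6 KC genes to 14743 to 26978 CPM in KCs and 18.3 to 94.3 CPM in KC-LCs, 6 PM genes to 9360 to 9667 CPM in PMs and 82.8 to 112 CPM in PM-LCs, and 6 AM genes to 21472 to 24548 CPM in AMs and 2526 to 9576 CPM in AM-LCs. Several libraries stood apart. Of the cultures, MG-LC replicate 1 held 30979 CPM of 8 fibroblast and mesothelium genes, MG-LC replicate 3 held 1012, PM-LC replicate 2 held 2209 and AM-LC replicate 3 held 1668, against at most 366 CPM in the other 8 cultured libraries. Among the sorted libraries, KC replicate 1 held more dendritic cell (627 CPM), monocyte (342) and T and NK cell (177) marker RNA than the other KC libraries (at most 99.4, 136 and 30.2 CPM). Neutrophil genes summed to 142, 121 and 3.00 CPM in KC replicates 1, 2 and 3. Several results that rest on these libraries are given with and without them, but not all. In bulk RNA fewer cells of a type and less RNA per cell cannot be told apart.

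The sorted populations carried different enzyme sets. Per exon length, Ptgs1 was the most abundant of the 10 genes in MG (332 ± 8.22 RPKM, SD, n = 3) and KCs (300 ± 131), Alox15 in PMs (6151 ± 440) and Alox5ap in AMs (211 ± 13.3). Ptgs1 made up 52.1% of the summed RPKM of the 10 genes in MG and 66.7% in KCs, Alox15 82.6% in PMs, and Alox5ap, Alox5 and Ltc4s 37.8%, 27.8% and 26.4% in AMs. After culture, Alox5ap had the highest mean of the 10 in KC-LCs (195 ± 35.9 RPKM), PM-LCs (73.2 ± 15.4) and AM-LCs (75.9 ± 35.0), and Ptgs2 in MG-LCs (182 ± 276), where replicate 1 alone set the order: it held 500 RPKM of Ptgs2, against 28.9 and 16.9 in the other MG-LC libraries.

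**Figure D1:**
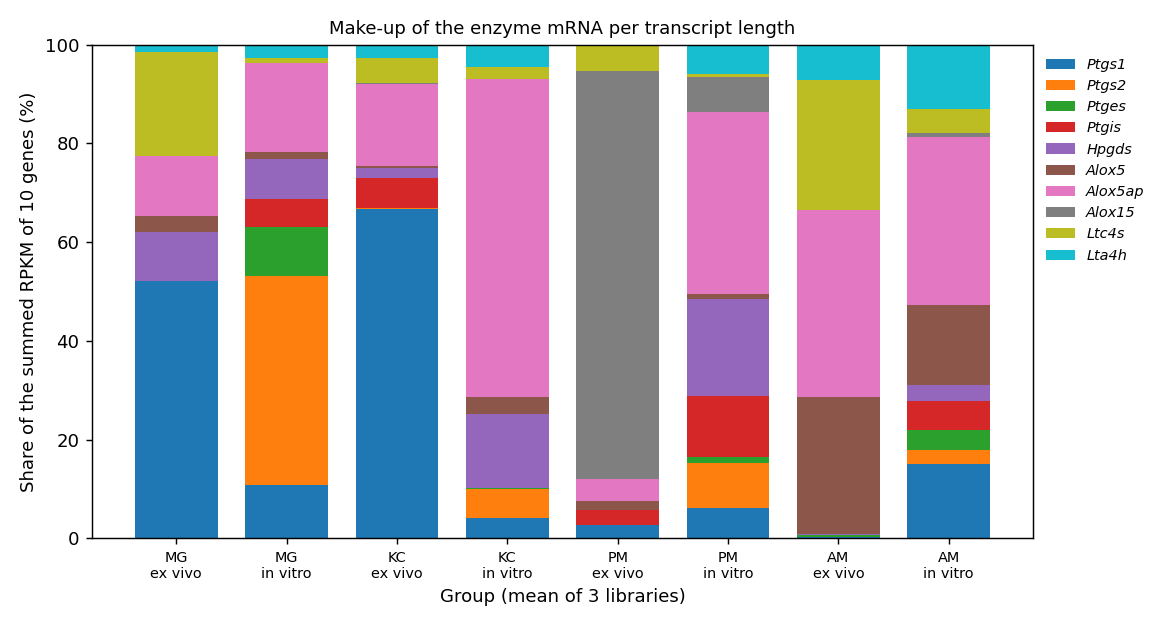
Share of each gene in the summed RPKM of the 10 enzyme genes (y axis, %) in the 8 groups (x axis), from the mean of 3 libraries a group. Ptgs1 takes 52.1% in MG and 66.7% in KCs, Alox15 takes 82.6% in PMs, and Alox5ap takes the largest share in the KC-LC, PM-LC and AM-LC bars.

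**Figure D2:**
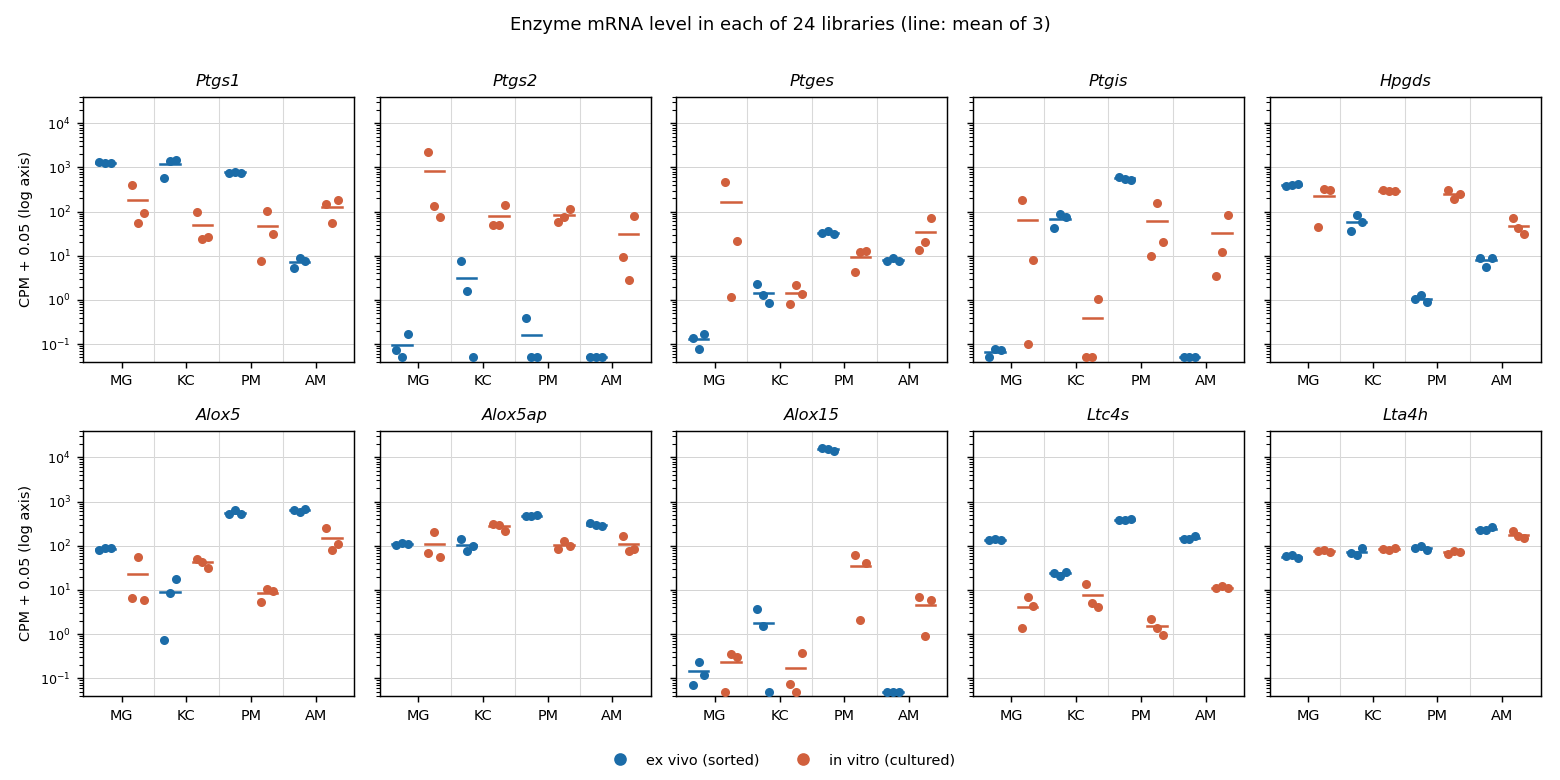
Level of each enzyme gene (CPM plus 0.05, log axis) in each of the 24 libraries, blue for ex vivo and red for in vitro, with a line at the mean of 3. Ptgs2 sits at or under 7.58 CPM in every sorted library and at or over 2.79 CPM in every cultured one, while Ltc4s is lower in all cultured libraries than in the sorted libraries of the same population.

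Whether the change from sorted to cultured cells was the same in the 4 populations was tested for each gene with edgeR's quasi-likelihood test of the interaction over all 24 libraries, with Benjamini-Hochberg adjustment over 17408 genes. All 10 genes passed an adjusted p of 0.05, as did 36.3% of all genes tested. The adjusted p ran from 7.72e-07 for Hpgds to 0.0367 for Ptgs2, and for Ptgs2 it was over 0.05 under 12 of 31 alternatives, with 0.668 as the highest, under limma-voom. For Ptgs2, leaving out MG replicate 1, 2 or 3, MG-LC replicate 1, KC replicate 1 or any KC-LC library gave an adjusted p from 0.0585 to 0.125. Ptges lost its call under limma-voom (0.187), and the other 8 genes kept theirs under all 31. In the test within each population (edgeR's quasi-likelihood test, adjusted p under 0.05), MG had 2 of 8 tested genes higher in sorted cells (21.1% of all genes tested were called in that direction) and 3 higher in cultured cells (25.1%). KCs had 3 of 10 higher sorted (19.3%) and 3 higher cultured (14.3%), PMs 7 (12.0%) and 2 (16.8%), and AMs 4 (23.0%) and 6 (25.8%). The median log2 fold change of the enzyme genes, where a value above 0 means higher ex vivo, stood at 0.37 for MG (-0.03 over all genes tested), -0.06 for KCs (0.01), 2.69 for PMs (-0.01) and -2.40 for AMs (-0.04). The AM median includes 3 genes without a read in sorted AMs, whose fitted values depend on the count the model adds. These 3 were the lowest values, and the median itself lay between Hpgds (-2.62) and Ptges (-2.18).

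**Figure D3:**
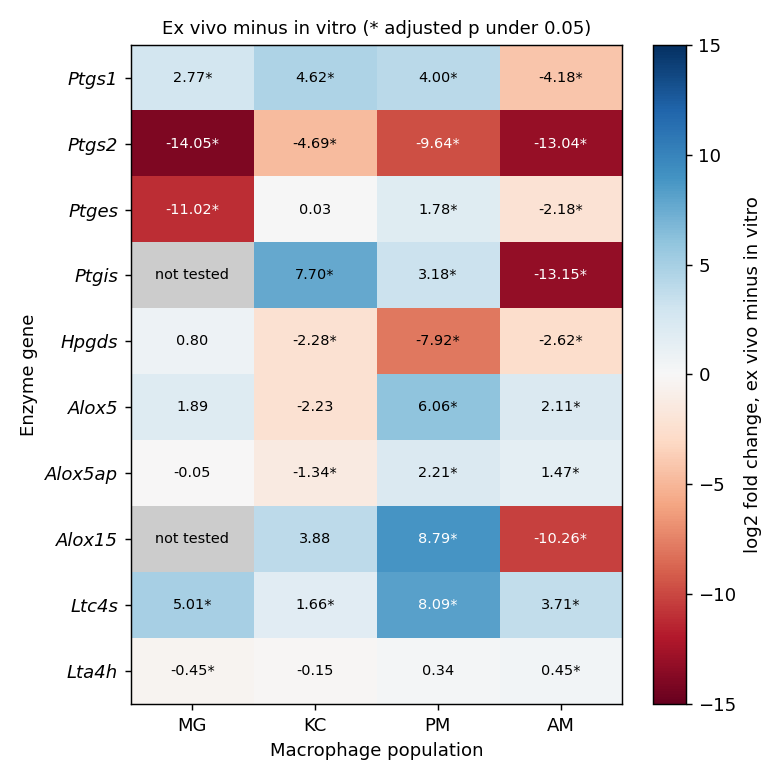
Log2 fold change, ex vivo minus in vitro, of each enzyme gene (rows) in each population (columns), blue for higher ex vivo, red for higher in vitro and grey for genes that did not pass the filter on low counts, with a star where the adjusted p was under 0.05. Ptgs2 is red in all 4 columns and Ltc4s blue in all 4, while Ptgs1 is blue in MG, KCs and PMs and red in AMs; the values of Ptgs2, Ptgis and Alox15 in AMs stand against groups without a read and depend on the count the model adds.

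For the 4 genes that passed the test in the same direction in 3 or 4 populations (Ptgs1, Ptgs2, Hpgds and Ltc4s), and for Alox5, whose mean level among sorted cells ran from 8.77 CPM in KCs to 638 CPM in AMs, the RefSeq promoters (GRCm38.p6, 250 bases before to 50 bases after the gene start, read 5′ to 3′ on the gene's strand) are shown. RefSeq promoters were at hand for 7 of the 10 genes: Ptgs1, Ptgs2, Ptges, Hpgds, Alox5, Ltc4s and Lta4h. Capitals mark matches, on either strand, to the TATA box (TATAAA), the GC box (GGGCGG), the cyclic AMP response motif (ACGTCA), the E-box (CACGTG), the core bound by the macrophage factor PU.1 (GAGGAAG) and the C/EBP motif (TTNCGNAA).
Ptgs1, chr2:36230176-36230475, strand +: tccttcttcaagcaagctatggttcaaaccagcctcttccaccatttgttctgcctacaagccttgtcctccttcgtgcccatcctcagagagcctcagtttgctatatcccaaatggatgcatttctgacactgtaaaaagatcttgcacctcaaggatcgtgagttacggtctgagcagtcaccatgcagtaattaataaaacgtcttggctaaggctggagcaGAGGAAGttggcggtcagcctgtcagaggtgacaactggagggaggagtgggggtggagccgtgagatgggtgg
Ptgs2, chr1:150099781-150100080, strand +: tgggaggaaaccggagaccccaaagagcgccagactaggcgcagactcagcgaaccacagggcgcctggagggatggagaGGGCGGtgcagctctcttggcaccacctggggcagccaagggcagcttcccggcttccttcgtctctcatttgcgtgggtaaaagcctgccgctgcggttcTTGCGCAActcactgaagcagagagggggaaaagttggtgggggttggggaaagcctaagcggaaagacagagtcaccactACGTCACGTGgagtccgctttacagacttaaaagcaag
Hpgds, chr6:65144681-65144980, strand minus: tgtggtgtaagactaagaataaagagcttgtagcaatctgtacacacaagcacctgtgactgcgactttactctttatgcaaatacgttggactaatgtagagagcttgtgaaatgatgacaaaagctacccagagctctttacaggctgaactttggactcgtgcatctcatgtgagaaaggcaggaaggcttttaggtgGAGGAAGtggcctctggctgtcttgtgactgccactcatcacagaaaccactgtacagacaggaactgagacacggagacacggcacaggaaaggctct
Ltc4s, chr11:50238483-50238782, strand minus: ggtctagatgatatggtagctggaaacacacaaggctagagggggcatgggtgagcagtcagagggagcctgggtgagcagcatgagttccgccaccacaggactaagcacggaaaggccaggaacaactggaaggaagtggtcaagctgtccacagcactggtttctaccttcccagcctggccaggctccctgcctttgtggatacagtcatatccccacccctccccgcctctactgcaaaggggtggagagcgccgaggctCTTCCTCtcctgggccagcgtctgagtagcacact
Alox5, chr6:116461129-116461428, strand minus: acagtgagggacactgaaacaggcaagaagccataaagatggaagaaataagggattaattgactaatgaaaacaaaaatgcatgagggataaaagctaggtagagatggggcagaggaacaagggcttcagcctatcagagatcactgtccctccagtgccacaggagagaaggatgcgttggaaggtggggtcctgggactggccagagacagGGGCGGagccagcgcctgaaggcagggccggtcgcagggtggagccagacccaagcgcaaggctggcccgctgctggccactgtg
The Ptgs2 window held the C/EBP motif at bases -69 to -62 from the start, a GC box at -170 to -165, and the cyclic AMP response motif (13 to 18) and the E-box (17 to 22) in overlap. The PU.1 core lay at bases -24 to -18 of Ptgs1, -49 to -43 of Hpgds and, on the opposite strand, 16 to 22 of Ltc4s. The Alox5 window held a GC box at -35 to -30 only. Among the 32851 RefSeq promoters of this length, the C/EBP motif was found in 2.47%, the cyclic AMP response motif in 7.51%, the E-box in 7.15%, the PU.1 core in 13.6%, the TATA box in 13.6% and the GC box in 35.7%. A match describes these letters and is not evidence of binding.

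Ptgs1 (ENSMUSG00000047250, chr2:36230426-36252272 of GRCm38) encodes COX-1, the constitutive cyclooxygenase. It was at 1324, 1283 and 1261 CPM in MG and at 401, 54.6 and 90.6 CPM in MG-LCs. KCs had 580, 1424 and 1495 CPM and KC-LCs 95.5, 24.4 and 26.3 CPM. PMs had 760, 801 and 742 CPM and PM-LCs 7.66, 105 and 30.9 CPM. In these 3 populations every sorted library lay above every cultured one. AMs were the exception, with 5.14, 8.93 and 7.76 CPM sorted and 150, 56.1 and 184 CPM cultured, so that here each cultured library lay above each sorted one. The log2 fold change was 2.77 ± 0.80 (SE) in MG (adjusted p = 0.0325), 4.62 ± 0.70 in KCs (0.00333) and 4.00 in PMs (0.0138), against -4.18 in AMs (0.000809; edgeR's quasi-likelihood test throughout). The MG call was lost without any 1 of MG replicates 1, 2 and 3 or MG-LC replicates 2 and 3 (log2 fold change 2.35 to 2.76, adjusted p 0.0513 to 0.0995), and without MG-LC replicate 1 the value was 4.10 (adjusted p = 0.000327). The PM call was lost with no filter on low counts (0.0532) and without PM replicate 1 (4.00, 0.0502), and without PM-LC replicate 2, the PM-LC library highest in Ptgs1 and in fibroblast and mesothelium genes (2209 CPM), it was 5.34 (0.000641). Leaving out KC-LC replicate 1 gave 5.52 in KCs, and leaving out AM-LC replicate 3 gave -3.80 in AMs. MG-LC replicate 1 and AM-LC replicate 3, like PM-LC replicate 2, led their cultures both in Ptgs1 and in fibroblast and mesothelium genes. These genes summed to 30979 CPM in the first and 1668 CPM in the second. In KC-LCs, replicate 1 was highest in Ptgs1 and lowest in these genes (0.0240 CPM). The part of fibroblasts and mesothelium in the Ptgs1 level was not tested. A gene model on the other strand, Gm43621, overlaps Ptgs1, and the library kit does not mark strand.

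Among the platelet genes that could mark another source of Ptgs1, Gp6 was at 0 in all 24 libraries and Itga2b at or under 1.65 CPM in every sorted library. MG carried Gp9 at 25.8 to 33.6 CPM and Itgb3 at 75.8 to 84.5 CPM, and the summed platelet list ran from 105 to 116 CPM in MG and from 64.4 to 110 CPM in MG-LCs, with 2 of 6 genes at 0 in each MG library. The part of platelets in the Ptgs1 level was not tested.

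Ptgs2 (ENSMUSG00000032487, chr1:150100031-150108227), which encodes COX-2, was at or under 0.334 CPM in sorted MG, PMs and AMs, reached 7.58 CPM in sorted KCs and was present in every culture. MG had 0.0220, 0 and 0.119 CPM and MG-LCs 2291, 133 and 77.4 CPM. KCs had 7.58, 1.58 and 0 CPM and KC-LCs 50.7, 49.1 and 144 CPM. PMs had 0.334, 0 and 0 CPM and PM-LCs 57.6, 74.0 and 116 CPM. No read fell on Ptgs2 in the 3 AM libraries, while AM-LCs had 9.31, 2.79 and 79.4 CPM, so that it was at least 1146-fold higher in AM-LCs on average (3 reads over the group as the floor). In each population every cultured library lay above every sorted one. The log2 fold change was -14.05 ± 2.32 in MG (adjusted p = 0.00597), -4.69 in KCs (0.0340) and -9.64 in PMs (0.000714), and the test in AMs gave an adjusted p of 0.0246 (edgeR's quasi-likelihood test).

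The highest Ptgs2 level lay in MG-LC replicate 1, which had 30979 CPM of fibroblast and mesothelium genes, and without it the log2 fold change in MG was -11.05. Without MG replicate 3, it was -15.83. MG-LC replicate 2, with 7.39 CPM of these genes, held 133 CPM of Ptgs2, more than any PM-LC or AM-LC library but less than KC-LC replicate 3 (144 CPM). In KCs the highest sorted level lay in replicate 1, the library with the most dendritic cell and monocyte marker RNA, and replicate 3, without a read, was also the library with the fewest neutrophil genes (3.00 CPM, against 142 and 121). The part of these cells in the sorted level was not tested. Leaving out KC replicate 1 gave -6.65 (adjusted p = 0.0101). Leaving out KC replicate 2 or any KC-LC library ended the KC call (log2 fold change -4.02 to -5.00, adjusted p 0.0638 to 0.108), with the smallest size, -4.02, without KC-LC replicate 3, and so did fitting with no filter on low counts (0.0562). In PMs, leaving out replicate 1, the only PM library with a read on Ptgs2, moved the value to -14.50 (adjusted p still under 0.05). In AMs the adjusted p without AM replicate 2, AM replicate 3 or AM-LC replicate 2 was 0.0504 to 0.0553, and without AM-LC replicate 3 (1668 CPM of fibroblast and mesothelium genes) it was 0.00262. That call was also lost under limma-voom (0.0575) and with no filter on low counts (0.164). KC-LC replicate 3 was highest among KC-LCs both in Ptgs2 (144 CPM) and in these genes (29.8 CPM, against 0.0240 and 1.59). Among PM-LCs, Ptgs2 was highest in replicate 3 (116 CPM), with 366 CPM of these genes against 2209 in replicate 2. The part of fibroblasts and mesothelium in the Ptgs2 level was not tested.

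**Figure D4:**
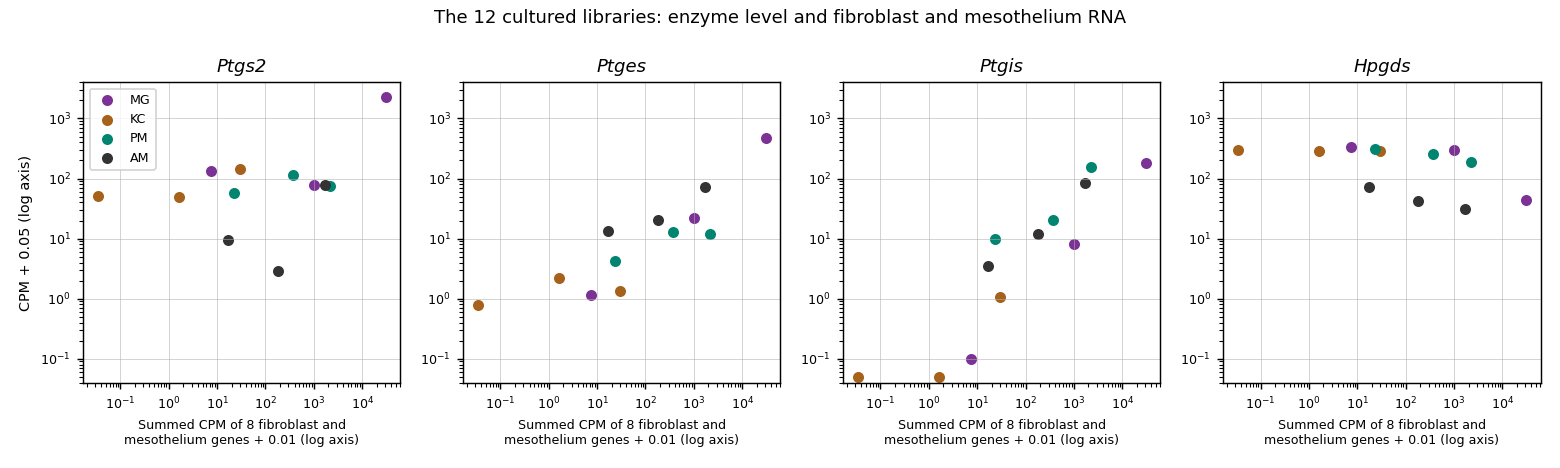
Level of Ptgs2, Ptges, Ptgis and Hpgds (y axis, CPM plus 0.05, log axis) against the summed CPM of 8 fibroblast and mesothelium genes (x axis, log axis) in the 12 cultured libraries, coloured by population. Ptgis runs from 0 to 183 CPM with the highest values at the right, Ptgs2 holds 133 CPM in the MG-LC library with 7.39 CPM of these genes, and Hpgds is lowest within MG-, PM- and AM-LCs in the rightmost library of each.

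The terminal prostaglandin synthases followed separate patterns. Ptges (ENSMUSG00000050737, chr2:30889471-30929863), the microsomal prostaglandin E synthase that is known to be induced with COX-2, had 32.7, 36.5 and 30.4 CPM in PMs, more than in AMs (7.53, 9.08 and 7.49), KCs (2.20, 1.22 and 0.799) and MG (0.0881, 0.0271 and 0.119). In culture it was lower in PM-LCs, at 4.20, 11.9 and 12.6 CPM (log2 fold change 1.78, adjusted p = 0.0183), and higher in AM-LCs, at 13.2, 20.7 and 71.7 CPM (-2.18, 0.0287, edgeR's quasi-likelihood test). KC-LCs had 0.744, 2.17 and 1.31 CPM, which overlapped with the KC values (0.03, 0.979), and the sign changed without KC replicate 1 or KC-LC replicate 1 or 3. MG-LCs spread from 473 CPM in replicate 1 to 1.12 in replicate 2 and 22.1 in replicate 3, all above MG, and in the order of their fibroblast and mesothelium genes (30979, 7.39 and 1012 CPM). AM-LC replicate 3, the AM-LC library highest in Ptges, was also the highest in these genes (1668 CPM), and their part in the Ptges level was not tested. The log2 fold change in MG was -11.02 ± 2.67 (adjusted p = 0.0189), it was -7.19 without MG-LC replicate 1 and -3.81 without MG-LC replicates 1 and 3, and without MG replicate 1, 2 or 3 the adjusted p was 0.0831 to 0.0866. Limma-voom gave 0.356 for MG. The calls in PMs and AMs were likewise lost without any 1 sorted library of the population (adjusted p 0.0572 to 0.0675 in PMs and 0.0813 to 0.0962 in AMs) and with all 24 libraries in 1 model (0.236 and 0.154), and the AM call also under limma-voom (0.0693) and with no filter (0.0961). Without AM-LC replicate 3, the value in AMs was -1.06 (0.0185). A gene model on the same strand, Gm13400, overlaps Ptges.

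Ptgis (ENSMUSG00000017969, chr2:167191805-167240604), prostacyclin synthase, was highest in sorted PMs, followed by sorted KCs. PMs had 617, 558 and 515 CPM and PM-LCs 9.95, 156 and 20.1 CPM. KCs had 42.0, 89.3 and 75.3 CPM and KC-LCs 0, 0 and 1.01 CPM. In these populations the sorted libraries lay above the cultured ones, with a log2 fold change of 3.18 in PMs (adjusted p = 0.0471) and 7.70 ± 1.39 in KCs (0.00634, edgeR's quasi-likelihood test). AMs had no read, and AM-LCs had 3.50, 11.9 and 83.7 CPM, at least 1241-fold more on average (adjusted p = 0.0209). MG had 2 reads over the 3 libraries, and MG-LCs had 183, 0.0498 and 8.12 CPM. The gene did not pass the filter on low counts in MG and was not tested there. Within MG-, PM- and AM-LCs alike, Ptgis was highest where the fibroblast and mesothelium genes were highest (MG-LC replicate 1, PM-LC replicate 2 and AM-LC replicate 3), and in MG-LC replicate 2, with 7.39 CPM of these genes, it had 2 reads. KC-LC replicate 3, the only KC-LC library with reads on Ptgis, also held the most of these genes among KC-LCs (29.8 CPM, against 0.0240 and 1.59). Their part in the Ptgis level was not tested. Without PM-LC replicate 2 the log2 fold change in PMs was 5.26 (adjusted p = 6.24e-05), and leaving out any other PM or PM-LC library ended the call (2.7 to 3.23, 0.0623 to 0.126), as did no filter on low counts (0.146) and all 24 libraries in 1 model (0.159). In KCs, the 40 reads of KC-LC replicate 3 were the only ones in culture, and without that library the value was 14.38. Endothelial cells also make prostacyclin, and 6 endothelial genes summed to 175, 237 and 321 CPM in KCs and 86.9, 37.6 and 70.4 CPM in KC-LCs, most of it in KCs from Cdh5 (139, 228 and 318 CPM), while Vwf was higher in KC-LCs (22.7 to 46.6 CPM) than in KCs (2.43 to 9.16 CPM) and Tek at or under 0.143 CPM in both. Their part in the KC result was not tested. In AMs the call was lost without AM-LC replicate 2 (adjusted p = 0.125), under limma-voom (0.0596) and with no filter (0.151), and without AM-LC replicate 3 it was kept (0.00234). The genes 1110018N20Rik and Gm14291 on the other strand overlap Ptgis.

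Hpgds (ENSMUSG00000029919, chr6:65117293-65144908), the prostaglandin D2 synthase of haematopoietic cells, set sorted MG apart from the other sorted cells and was more even among cultures. MG had 389, 394 and 431 CPM, KCs 37.2, 82.6 and 57.7 CPM, AMs 9.03, 5.50 and 8.90 CPM and PMs 1.00, 1.25 and 0.841 CPM. All 6 differences between sorted populations passed the test, the largest being 8.56 ± 0.37 on the log2 scale between MG and PMs (adjusted p = 1.64e-08, edgeR's quasi-likelihood test). In culture, KC-LCs had 303, 287 and 290 CPM, PM-LCs 308, 192 and 254 CPM and AM-LCs 71.3, 41.5 and 31.3 CPM. Each of these libraries lay above all sorted libraries of its population, with a log2 fold change of -2.28 ± 0.31 in KCs (adjusted p = 0.00226), -7.92 ± 0.31 in PMs (2.74e-05) and -2.62 in AMs (0.000823). PM-LCs thus held 243-fold more Hpgds RNA than PMs on average. These 3 calls held without each single library and in all other alternatives run. MG-LCs had 44.2, 331 and 303 CPM, which lay under the MG values by 0.80 on the log2 scale (adjusted p = 0.359). The lowest of them was replicate 1, the library rich in fibroblast and mesothelium RNA, and without it the difference was 0.30. A gene model on the other strand, Gm17147, overlaps Hpgds.

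Hpgds is also a gene of mast cells. In sorted cells the mast cell protease genes Mcpt4, Cma1 and Tpsb2 were at 0 except in PMs, the population with the least Hpgds, where they reached 9.22 CPM. In KC-LCs, and in MG-LCs and PM-LCs, none of the 3 was above 0.0646 CPM. AM-LC replicates 1 and 3 held 90.2 and 91.4 CPM of the mast cell gene Cpa3, against 1.15 in replicate 2, and Hpgds was at 71.3 and 31.3 CPM in the first pair and 41.5 CPM in the other. The summed list of 8 mast cell genes ran from 14.1 to 121 CPM in AM-LCs and was at or under 22.4 CPM in the other libraries. It stood at 8.73 to 21.9 CPM in KCs and 0.150 to 10.2 CPM in KC-LCs, where the 3 protease genes were at 0. Other mast cell genes thus had reads there, and MG-LC replicate 1 held 11.3 CPM of the list. The part of mast cells in the Hpgds level was not tested in any population.

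Alox5 (ENSMUSG00000025701, chr6:116410077-116461178), which encodes 5-lipoxygenase, was high in sorted AMs and PMs. AMs had 636, 588 and 689 CPM and AM-LCs 255, 81.0 and 107 CPM. PMs had 534, 629 and 520 CPM and PM-LCs 5.30, 10.3 and 9.57 CPM. The sorted libraries lay above the cultured ones in both populations, by 2.11 on the log2 scale in AMs (adjusted p = 0.00524) and by 6.06 ± 0.33 in PMs (5.15e-05, edgeR's quasi-likelihood test). Without AM-LC replicate 1 the AM value was 2.72, and with all 24 libraries in 1 model the adjusted p for AMs was 0.0543. AM-LC replicate 1, the highest AM-LC library in Alox5 and Alox5ap, also held the most of 8 mast cell genes (121 CPM, against 14.1 and 112). Among AM-LCs, Ltc4s was highest in replicate 2 (12.0 CPM). Neutrophil genes summed to 674, 736 and 321 CPM in AM-LC replicates 1, 2 and 3. The part of mast cells and neutrophils in the levels of these enzyme genes was not tested. MG had 80.8, 86.9 and 88.0 CPM and MG-LCs 6.65, 54.5 and 5.72 CPM, a difference of 1.89 that did not pass (adjusted p = 0.129), although every MG library lay above every MG-LC library. Without MG-LC replicate 2, the highest of the MG-LCs, it passed (3.75, 0.00196), and with all libraries it also passed under limma-voom. KCs had the least, 0.680, 8.41 and 17.2 CPM, and all KC-LC libraries lay above them at 51.2, 43.7 and 31.8 CPM. That difference was -2.23 (adjusted p = 0.0911), and without KC replicate 1, the library with the most RNA of other leukocytes, -1.69 (0.0166). With no library left out, it passed under limma-voom, under DESeq2 and with all 24 libraries in 1 model.

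Alox5ap (ENSMUSG00000060063, chr5:149264767-149288153), whose product presents arachidonic acid to 5-lipoxygenase, had differences of the same sign as Alox5 in KCs, PMs and AMs, over a narrower range. PMs had 471, 472 and 496 CPM and PM-LCs 85.2, 128 and 98.8 CPM. AMs had 321, 291 and 286 CPM and AM-LCs 165, 74.6 and 83.7 CPM. Alox5ap fell in both populations without overlap, with a log2 fold change of 2.21 ± 0.20 in PMs (adjusted p = 0.000343) and 1.47 in AMs (0.00459, edgeR's quasi-likelihood test). In KCs it was the cultured libraries that were higher, at 318, 291 and 219 CPM against 144, 77.4 and 97.2 CPM (-1.34, adjusted p = 0.0127, and 0.0502 without KC-LC replicate 2). MG had 104, 117 and 108 CPM and MG-LCs 68.9, 207 and 55.0 CPM. The MG-LC libraries lay on both sides of the MG libraries (-0.05, adjusted p = 0.935), and without MG-LC replicate 2 the difference turned to 0.79 (0.0259). Per exon length, KC-LCs thus held 195 RPKM of Alox5ap beside 10.3 RPKM of Alox5, and PM-LCs 73.2 beside 2.04. Sorted AMs held 211 beside 155. The gene models n-R5s180 and Gm19719 on the other strand overlap Alox5ap.

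Ltc4s (ENSMUSG00000020377, chr11:50236461-50238616), leukotriene C4 synthase, was lower in culture in all 4 populations. PMs had 376, 388 and 397 CPM and PM-LCs 2.10, 1.32 and 0.886 CPM. AMs had 144, 142 and 162 CPM and AM-LCs 10.8, 12.0 and 11 CPM. MG had 132, 142 and 134 CPM and MG-LCs 1.31, 6.75 and 4.20 CPM. KCs had the lowest sorted level, 24, 21.0 and 25.5 CPM, and KC-LCs had 13.9, 4.98 and 4.11 CPM. No cultured library reached the sorted libraries of its population. The log2 fold change was 8.09 ± 0.37 in PMs (adjusted p = 3.00e-05), 3.71 ± 0.12 in AMs (1.41e-05), 5.01 ± 0.61 in MG (0.00258) and 1.66 ± 0.49 in KCs (0.0356, edgeR's quasi-likelihood test). The PM, AM and MG calls held under all alternatives, with 5.60 in MG without MG-LC replicate 2. The KC call was lost without any 1 of the KC libraries or KC-LC replicate 2 or 3 (1.34 to 1.73, adjusted p 0.0513 to 0.129), and without KC-LC replicate 1 it was 2.37 (0.00914). On average, 0.371% of the PM level was left in PM-LCs, 3.00% in MG-LCs, 7.56% in AM-LCs and 32.6% in KC-LCs. A gene model on the other strand, Gm26542, overlaps Ltc4s.

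Lta4h (ENSMUSG00000015889, chr10:93453411-93484875), the hydrolase that makes leukotriene B4 and is found in most cell types, had the narrowest range of the 10 genes. AMs had the most, 229, 232 and 264 CPM, and AM-LCs had 218, 163 and 149 CPM (log2 fold change 0.45, adjusted p = 0.0395). PMs had 90.6, 96.4 and 81.8 CPM and PM-LCs 64.0, 77.4 and 70.8 CPM (0.34, 0.166). KCs had 68.7, 61.3 and 90.4 CPM and KC-LCs 82.9, 78.0 and 89.4 CPM, which overlapped (-0.15, 0.661). MG had 57.5, 60.2 and 52.7 CPM and MG-LCs 74.3, 80.1 and 70.3 CPM (-0.45, 0.0420, edgeR's quasi-likelihood test). The group means thus stood between 56.8 and 242 CPM in all 8 groups. Both calls were lost without most single libraries: in AMs without any but AM-LC replicate 1 (0.36 to 0.49, adjusted p 0.0703 to 0.131), and in MG without any MG library or MG-LC replicate 2 (-0.38 to -0.49, 0.0848 to 0.157).

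Alox15 (ENSMUSG00000018924, chr11:70344152-70352031) was a gene of PMs among the sorted cells. PMs had 15859, 15562 and 13859 CPM, KCs 3.72, 1.45 and 0 CPM, MG 0.0220, 0.189 and 0.0716 CPM and AMs no read in any library. Every sorted PM library thus lay far above the other 9 sorted libraries. PM-LCs had 60.3, 2.06 and 40.1 CPM, 0.226% of the PM level on average, with a log2 fold change of 8.79 ± 1.25 (adjusted p = 0.00246, edgeR's quasi-likelihood test), and 8.26 without PM-LC replicate 2 or 9.46 without PM-LC replicate 1. AM-LCs had 7.02, 0.878 and 5.92 CPM, at least 173-fold more than AMs on average (adjusted p = 0.00387), which is still at most 7.02 CPM. In KC-LCs it was at 0.0240, 0 and 0.328 CPM, which overlapped with KCs (3.88, 0.175, and 6.82 without KC-LC replicate 3), and in MG-LCs at 0, 0.299 and 0.257 CPM. In MG it did not pass the filter on low counts and was not tested. Eosinophils are another known source of Alox15. Of 6 eosinophil and basophil genes, Prg2 and Prss34 were at 0 in all 24 libraries and Epx at or under 0.282 CPM, and the sum of the 6 was at or under 1.54 CPM in PMs and 18.4, 0 and 7.34 CPM in PM-LCs, where replicate 2 was also the lowest in Alox15. It was at or under 0.490 CPM in AM-LCs. Their part in the Alox15 level of PM-LCs was not tested. The sorted PMs held 9360 to 9667 CPM of 6 PM genes, beside 82.8 to 112 CPM in PM-LCs.

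Between sorted populations, 46 of 60 differences (10 genes in 6 pairs) passed an adjusted p of 0.05 (edgeR's quasi-likelihood test on the 12 sorted libraries). Of the 10 genes, 7 differed between MG and KCs, where 42.1% of all genes tested did, 8 between MG and PMs (44.4%), 6 between MG and AMs (54.4%), 7 between KCs and PMs (35.6%), 10 between KCs and AMs (43.3%) and 8 between PMs and AMs (36.4%). Ptgs1 ran in the order MG, KCs, PMs and AMs, and no difference among the first 3 passed (adjusted p 0.0834 to 0.836), although all MG libraries lay above all PM libraries. Without KC replicate 1, MG (0.70, 0.00174) and KCs (0.86, 0.00124) both passed as higher than PMs, and DESeq2 called MG against PMs (0.0433). AMs lay 7.43 below MG on the log2 scale (5.40e-08). Ptges and Hpgds differed in all 6 pairs. AMs and PMs, the populations with the most Alox5, had a difference of -0.17 ± 0.65 in it (PMs minus AMs, 0.869), MG and KCs one of -0.01 ± 0.19 in Alox5ap (0.989), MG and AMs one of -0.17 ± 0.11 in Ltc4s (0.214) and KCs and PMs one of -0.29 ± 0.15 in Lta4h (0.163), none of which passed. Ltc4s was lower in KCs than in PMs, with a log2 difference of -4.04 ± 0.13 (8.98e-09), and Lta4h was lower in MG than in AMs (-2.13 ± 0.16, 6.12e-07). For Ptgs2, only KCs against AMs passed (0.0271), and it was lost without any AM library (0.0695 to 0.0707). The call of Lta4h between MG and KCs (-0.43, 0.0410) was lost under 16 of 19 alternatives, and that of Alox15 between MG and KCs (-4.28, 0.0210) under 5, among them without KC replicate 1 (0.0575), MG replicate 1 (0.0862) and MG replicate 3 (0.0786). Without PM replicate 3, Alox5ap between PMs and AMs stood at 0.0504. With all 24 libraries in 1 model, that call was lost as well (0.206). So were those of Ptges between KCs and AMs (0.103) and PMs and AMs (0.190), and of Ptgis between KCs and PMs (0.186).

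Between cultures, 8 of 60 differences passed. None of the 10 genes differed between MG- and KC-LCs, MG- and PM-LCs or KC- and PM-LCs by edgeR's quasi-likelihood test, at an adjusted p under 0.05, where 0%, 0.169% and 0.203% of all genes tested did. At an unadjusted p under 0.05, 4, 4 and 5 of the 10 genes and 2291, 2164 and 1997 of all 14813 genes passed by edgeR in these pairs. Limma-voom called none of the 10 (0, 37 and 24 of all genes) and DESeq2 2, 2 and 4 (1046, 864 and 1004 of all genes). AM-LCs differed from MG-LCs in 2 genes (8.60% of all genes), from KC-LCs in 2 (7.59%) and from PM-LCs in 4 (5.21%). The 8 differences were Hpgds, lower in AM-LCs by 2.22 to 2.60 on the log2 scale (adjusted p 0.0270 to 0.0440), Lta4h, higher in AM-LCs (-1.10 to -1.34 for the other culture minus AM-LCs, 0.00433 to 0.00786), and, against PM-LCs only, Alox5 and Ltc4s, higher in AM-LCs with log2 differences of -4.15 (0.0242) and -3.01 (0.0298) for PM-LCs minus AM-LCs. AM-LCs differ from the other cultures in growth factor, oxygen and glucose as well as in tissue, and these cannot be told apart. Lta4h kept its 3 calls without each single library, but lost that against MG-LCs without the 4 cultured libraries rich in fibroblast and mesothelium RNA (-1.27, 0.0599). Hpgds lost at least 1 of its calls without any library but MG-LC replicate 1 (highest adjusted p 0.172, without AM-LC replicate 2), and Alox5 and Ltc4s lost theirs without any AM-LC or PM-LC library (0.0503 to 0.105).

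The other genes of the pathways were taken from a list of 51 genes, from phospholipases to receptors. Of the 35 tested in MG, 5 passed as higher in sorted cells and 15 as higher in cultured cells (median log2 fold change -0.87). KCs had 10 and 6 of 36 (-0.04), PMs 2 and 5 of 32 (-0.32) and AMs 7 and 15 of 36 (-0.25; edgeR's quasi-likelihood test, with the shares of all genes given above). Of the 9 prostanoid receptor genes, 5 were tested in MG and 3 were higher in MG-LCs, namely Ptger2, Ptger4 and Ptgir, while Ptger3 was higher in MG (log2 fold change 2.96, adjusted p = 0.0173) and passed in the opposite direction in AMs (0.000538). The prostaglandin E2 receptor gene Ptger2 had 0.0661, 0 and 0 CPM in MG and 21.2, 3.96 and 8.94 CPM in MG-LCs (adjusted p = 0.00440). It was higher in the sorted cells of KCs, with 31.1, 54.0 and 53.0 CPM against 3.70, 5.66 and 16.4 CPM (2.45, 0.0154), and in AMs, with 53.5, 57.2 and 61.1 CPM against 12.3, 12.1 and 12.2 CPM (2.22 ± 0.13, 4.81e-05). Ptger4, the other receptor of prostaglandin E2 that signals through cyclic AMP, was at 1.90, 1.33 and 0.454 CPM in MG and 13.2, 44.6 and 67.0 CPM in MG-LCs (-5.12, 0.00565) and did not pass in the other populations (0.0502 to 0.319).

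**Figure D5:**
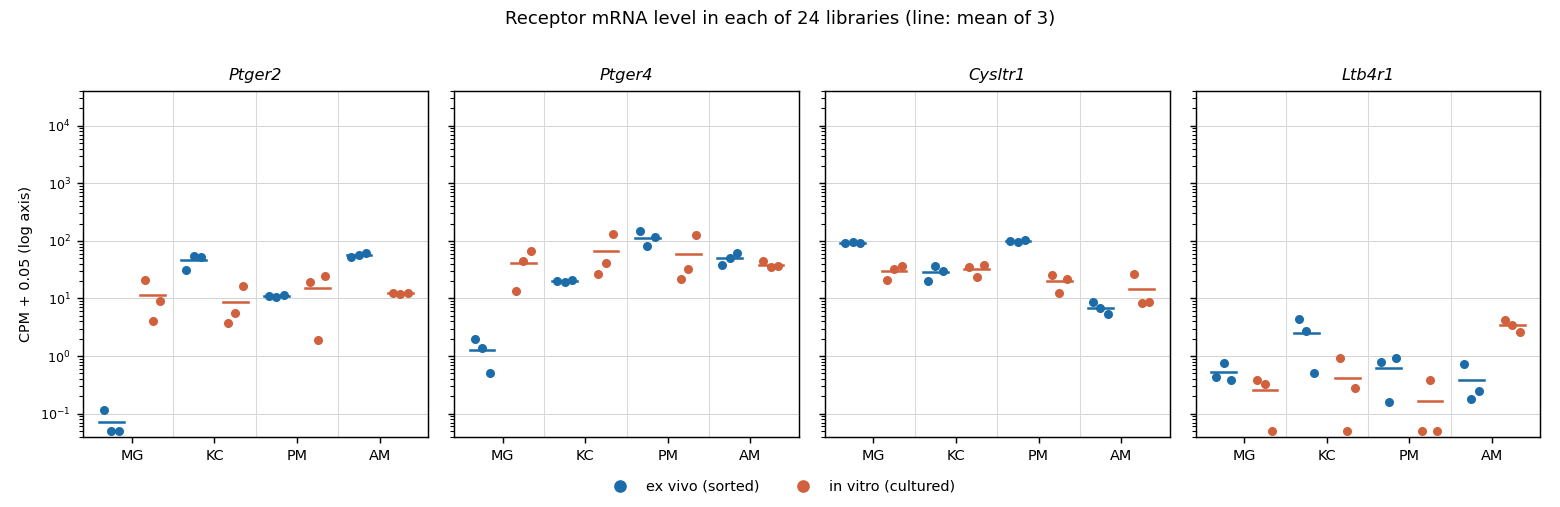
Level of the receptor genes Ptger2, Ptger4, Cysltr1 and Ltb4r1 (CPM plus 0.05, log axis) in each of the 24 libraries, blue for ex vivo and red for in vitro, with a line at the mean of 3. Ptger2 and Ptger4 lie lowest in sorted MG, at or under 1.90 CPM, and Cysltr1 lies highest in sorted MG and PMs, between 90.4 and 102 CPM.

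Cysltr1, a receptor of the cysteinyl leukotrienes, was at 91.2, 97.5 and 90.4 CPM in MG and 21.0, 32.1 and 36.7 CPM in MG-LCs (log2 fold change 1.59 ± 0.23, adjusted p = 0.00397). In PMs it was at 98.3, 95.7 and 102 CPM and in PM-LCs at 25.1, 12.6 and 21.7 CPM (2.32 ± 0.27, 0.00112). KCs and AMs did not pass (-0.16, 0.726, and -1.07, 0.104, edgeR's quasi-likelihood test). Ltb4r1, a leukotriene B4 receptor, was at or under 4.38 CPM in all libraries and passed in AMs only, with 4.12, 3.44 and 2.58 CPM in AM-LCs (-3.32, 0.00747). Ptgir, the prostacyclin receptor gene, rose in AM-LCs to 352, 315 and 249 CPM from 27.1, 18.6 and 18.6 CPM (-3.83 ± 0.21, 3.81e-05).

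Among the genes of breakdown and transport, Ptgr1, which inactivates leukotriene B4 and prostaglandins, was higher in vitro in all 4 populations, at a log2 fold change of -4.89 for KCs (adjusted p = 0.000709), -2.74 for MG (0.00117), -2.42 for AMs (0.000215) and -0.94 for PMs (0.0226). Hpgd, the dehydrogenase that inactivates prostaglandin E2, was higher in KCs (489, 1424 and 1378 CPM against 34.2, 187 and 246 CPM in KC-LCs, 2.85, 0.0224) and lower in PMs (5.38, 3.96 and 6.73 CPM against 72.5, 55.7 and 76.3 CPM in PM-LCs, -3.67 ± 0.28, 0.000187) and AMs (-5.08, 0.000780). Slco2a1, the prostaglandin transporter that brings prostaglandins into cells, had 26.1, 21.8 and 24.7 CPM in KCs and a single read in KC-LCs (adjusted p = 0.000200). In AMs it passed the other way (-6.96, 0.0102), with 0, 0.332 and 0 CPM sorted and 3.66, 5.12 and 33.3 CPM cultured. MG had no read and MG-LCs 38.9, 0.0996 and 6.52 CPM. PMs had 0.0668, 2.67 and 0.515 CPM and PM-LCs 1.32, 5.84 and 2.79 CPM, which did not pass (-1.61, 0.340). Within MG-, PM- and AM-LCs the library highest in Slco2a1 was the one richest in fibroblast and mesothelium genes. The part of these cells was not tested, and no value without these libraries is given for Slco2a1. Cyp4f18, which oxidises leukotriene B4, was at 175, 168 and 177 CPM in AMs and 12.6, 12.1 and 11.2 CPM in AM-LCs (3.85 ± 0.11, 9.32e-06) and higher in KCs (3.05, 0.00541), but lower in MG than in MG-LCs (-3.24, 0.0115). Of the other genes with the lowest adjusted p, Aloxe3 was higher ex vivo in MG (5.65, 0.00664), KCs (4.93, 0.0199) and AMs (7.68, 0.000134). Dpep2, which converts leukotriene D4, was higher in MG-LCs (-8.19, 0.00109) and KC-LCs (-5.17, 0.00779), and Mgst3 in KC-LCs (-4.38, 0.000594), MG-LCs (-3.46, 0.00631) and PM-LCs (-1.37, 0.0134). Cbr1 was higher in PM-LCs (-1.26, 0.0117), MG-LCs (-0.82, 0.00793) and AM-LCs (-0.75, 0.0172). Fam213b was higher in PMs (1.20, 0.0150) but lower in AMs (-3.13, 0.000385) and MG (-0.96, 0.0303) than in their cultures. Pla2g12a, a secreted phospholipase, was higher in AM-LCs (-1.93, 0.000174) and MG-LCs (-0.90, 0.0148; edgeR's quasi-likelihood test). The counts for these 51 genes moved with the libraries used, from 11 to 26 called in MG, 9 to 20 in KCs, 2 to 13 in PMs and 21 to 24 in AMs when 1 library at a time was left out. The smallest counts came without MG replicate 1 (11), KC-LC replicate 2 (9) and any 1 PM library (2), and the highest in PMs without PM-LC replicate 3 (13).

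Across the 24 libraries, the genes most like each enzyme gene were named by Pearson's r of log2 CPM among 9450 to 9451 genes. These are descriptions over libraries that fall into 8 groups and share their scaling. Hpgds ran closest with Slc37a2 (r = 0.966), Tmem206 (0.962) and Lair1 (0.950), Lta4h with Mvd (0.939), Klhdc4 (0.914) and St7 (0.908), and Ptgis with Palm (0.930), Nedd4 (0.914) and Saa3 (0.911). For Ptgs2 these were Snap47 (0.920), Plpp2 (0.901) and Smyd2 (0.897), for Ptgs1 Rhobtb1 (0.910), Tmem176b (0.860) and Ptp4a3 (0.858), and for Ptges Cald1 (0.890), a gene of smooth muscle and fibroblasts, Prdx5 (0.845) and Pdlim1 (0.844). For Ltc4s they were Samsn1 (0.904), Klhl6 (0.887) and Cbfa2t3 (0.883), for Alox5ap Arhgdib (0.899), Cotl1 (0.867) and Prkag1 (0.806), for Alox15 Ednrb (0.895), Srgn (0.870) and Usp3 (0.840), and for Alox5 Ap3m1 (0.868), Camkk2 (0.827) and Tnfrsf22 (0.819). Among the 10 enzyme genes themselves the closest pairs were Alox5 and Ltc4s (0.72), Ptgis and Alox15 (0.70) and Alox5 and Alox5ap (0.68).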

How the data were processed

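RNA from 12 sorted and 12 cultured macrophage samples was prepared with a SMARTer v4 and Nextera XT kit that does not mark strand. The authors deposited raw read counts per gene, made with Trimmomatic and STAR, which per the study's methods also did the counting, and joined in 1 table. The submitters' processing notes name Trimmomatic 0.36, STAR 2.5.2b and a human genome build, whereas the study's methods name other versions and mm10; the gene names are those of mouse. All count columns were mapped to a sample and 0 were left unused. No 2 libraries agreed within sampling noise. Of 45706 genes, 563 had no symbol. Coordinates and exon lengths are from GRCm38 (GENCODE M21).

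Differential expression was tested with edgeR 4.0.16 in R 4.3.3 (TMM scaling, filterByExpr with a minimum count of 10, robust quasi-likelihood F-test, no covariates) within each population, between populations within each state on 12 libraries, and as an interaction over 24. P-values were adjusted over all genes tested by the Benjamini-Hochberg method, with a threshold of 0.05. The SE printed with a log2 fold change is its absolute value divided by the square root of the F statistic, and was not fitted by the model. The study itself used limma-voom, which was tried as an alternative (limma 3.58.1), as were DESeq2 1.42.0, other filters and scalings, a replicate block, a fold threshold, all libraries in 1 model and leaving out each library. Libraries with over 1000 CPM of fibroblast and mesothelium genes were left out in an alternative chosen after seeing the data, and scaling by library size alone was likewise added then. The test was checked on simulated data. No source ties the libraries of a group to separate animals beyond their numbers, so p-values measure the spread between these samples. All 10 enzyme genes are named. Of the other genes of the pathways, the 4 with the lowest adjusted p in each population are named (2 in each direction), with the receptor genes Ptger2, Ptger4, Cysltr1 and Ltb4r1. Ptgir and Ptger3 beside the receptors, and the values of a named gene in other populations, were picked after their values were seen. The enzyme genes and all lists were chosen with earlier results of these data known.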

Additional observations from a re-analysis of the deposited data

Results flagged for a closer look

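The change from sorted to cultured cells differed between the 4 populations for all 10 enzyme genes by edgeR's quasi-likelihood test of the interaction. The adjusted p was 7.72e-07 for Hpgds, 3.81e-06 for Ltc4s, 0.000101 for Ptgs1, 0.000188 for Alox5ap, 0.000203 for Alox15, 0.000278 for Ptgis, 0.000356 for Alox5, 0.000416 for Ptges, 0.0144 for Lta4h and 0.0367 for Ptgs2. Under 31 alternatives, the calls of Ptges (0.187 under limma-voom) and Ptgs2 (over 0.05 in 12) were not always kept. Ptgs1, Ptges, Ptgis, Alox5ap, Alox15 and Lta4h passed the test in one direction in at least 1 population and in the opposite direction in another. Ptgs2 was called higher in culture and Ltc4s higher in sorted cells in all 4 populations, at different sizes. No outlier test was run within the groups of 3 libraries. Libraries that stood apart by marker genes are named above, and each library was left out in turn.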

How the results depend on the processing

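Over 555 comparisons of an enzyme gene with its result under an alternative, 473 kept their direction and side of the threshold, 64 lost their call, 10 gained one and 8 changed sign. The sign changes were those of Alox5ap in MG under limma-voom (0.21), the replicate block (0.21), library size only (0.19) and without MG-LC replicate 2 (0.79; range over left-out libraries -0.38 to 0.79), of Ptges in KCs without KC replicate 1 (-0.46), KC-LC replicate 1 (-0.31) or KC-LC replicate 3 (-0.04; range -0.46 to 0.45), and of Lta4h in KCs under library size only (0.05). That scaling moved the median log2 fold change of all genes to between 0.10 (PMs) and 0.33 (AMs), with 0.20 for MG and 0.21 for KCs.

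Leaving out 1 library at a time gave 2 to 6 called enzyme genes (MG, 5 with all libraries), 3 to 6 (KCs, 6), 6 to 9 (PMs, 9) and 7 to 10 (AMs, 10). For the other pathway genes it gave 11 to 26 (MG, 20 with all), 9 to 20 (KCs, 16), 2 to 13 (PMs, 7) and 21 to 24 (AMs, 22). Of the 60 pairwise differences, 44 to 49 were called among sorted cells (46) and 3 to 14 among cultures (8), the latter with 3 without AM-LC replicate 2 or 3 and 14 without MG-LC replicate 2. The interaction called 9 or 10 genes. Without the libraries rich in fibroblast and mesothelium RNA, 8 enzyme genes and 32 other pathway genes were called in MG, which then rested on 1 cultured library assumed to vary like the sorted ones, and 14 pairwise differences were called among cultures. The other counts among cultures were 5 with no filter, 22 with DESeq2, 5 with an added log2 fold threshold of 1.5 and 20 with all 24 libraries in 1 model. With that fold threshold, 2 other pathway genes were called in PMs. The number of all 14813 genes called also rose from edgeR to DESeq2, from 0 to 1046 between MG- and KC-LCs. Between PM- and AM-LCs it rose from 772 to 2078. For most settings here that number is not given, so a changed count need not be particular to the enzyme or pathway genes. The cause of these changes was not tested.

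Same-numbered libraries did not deviate together in all pairs, whether sorted and cultured libraries of a population (correlations from -0.14 to 0.07), sorted populations (-0.06 to 0.04) or cultured ones (-0.38 to 0.29, over 0.1 in 5 of 18). Between populations, the same number gave the highest correlation in 5 of 18 cases among sorted libraries and 10 of 18 among cultured ones. Among cultures, this held for every replicate of KC- with PM-LCs and of KC- with AM-LCs, and for replicates 1 and 3 of PM- with AM-LCs. With MG-LCs it held only for replicate 3, against KC-LCs and PM-LCs. The main tests took such libraries to share only a number, and whether same-numbered cultures share a batch was not tested. With the replicate block, 4 (MG), 5 (KCs), 9 (PMs) and 9 (AMs) enzyme genes were called, and 5 pairwise differences among cultures, without the 3 of Hpgds. With 3 reads standing for 0.0661 to 0.115 CPM, differences below that level were not detectable.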
